A study of Mus musculus with 4 samples.

Results

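The mitochondrial ribosomal protein genes encode the protein subunits of the mitoribosome, the ribosome that works inside mitochondria. They were taken from the deposited expression table by name: protein-coding genes with a mean of at least 1 TPM (a read count per unit of exon length, rescaled so that every library has an equal sum) over the 4 libraries, whose symbol is Mrpl or Mrps followed by a digit. The rule gave 77 of the 22809 genes in the table, 48 Mrpl genes named for the large subunit and 29 Mrps genes named for the small subunit, and it used no difference between groups. The pseudogene Mrpl48-ps was left out, and Mrpl53 was not analysed here.

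Poly(A) RNA was sequenced from kidney glomeruli isolated from untreated mice at 3 weeks of age. The 2 control libraries are labelled wild type, and the other 2 are labelled HDAC KO, which the series title gives as podocyte-specific deficiency of Hdac1 and Hdac2, both histone deacetylases. Each library pooled 2 mice, and the design text counts 2 independent experiments, so the p-values below measure the spread between pools. The Cre line and the alleles are not stated in the sources used here, and the knockout was directed at 1 of several glomerular cell types, so unaffected cells contribute to every value. The comparison is of HDAC KO with control libraries, named by their labels throughout, and asks what differs in glomerular RNA under that genotype.

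The mitoribosome translates the 13 proteins that mitochondrial DNA encodes, all of them parts of the respiratory chain or of ATP synthase. Its rRNAs are encoded in mitochondrial DNA, whereas every one of its proteins is encoded in the nucleus, made by the cytosolic ribosome and imported. The small subunit binds the mRNA and reads its codons, and the large subunit joins the amino acids. Many of the proteins have counterparts in bacterial ribosomes, and the others are specific to mitochondria.

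Reads recovered from the TPM values summed to between 12876939 and 20943138 per library over 22176 genes. Reads not assigned to those genes are not in these sums. Mitochondrially encoded genes took between 38.7% and 46.5% of TPM. Hdac1 measured 19.3 and 18.6 TPM in the control pools, and 22.9 and 22.5 in the HDAC KO pools, and Hdac2 20.2 and 24.1 against 23.5 and 20.9 TPM. Neither transcript was lower in both HDAC KO libraries, so the levels of the targeted genes in whole glomeruli do not check the labels. All 14 podocyte markers had a mean of at least 1 TPM. Their summed levels were 1098 and 1348 TPM in the control pools, and 469 and 744 in the HDAC KO pools. Much of these sums was Col4a3 (299 and 220 against 109 and 146 TPM) and Col4a4 (426 and 285 against 221 and 248 TPM). Those were the only 2 of the 14 markers that were higher in the first control than in the second. In bulk RNA, fewer cells of a type and less RNA per cell cannot be told apart. The first control stood apart in its proximal tubule markers, which summed to 45520 TPM against 10421 TPM in the second control and 5940 and 6671 TPM in the HDAC KO libraries. Most of that gap was Kap, at 31062 and 987 TPM in the controls, and the other 15 markers summed to 14458 and 9433 TPM against 4936 and 5470 TPM. Medians of the subunits and families, and several named genes, are therefore also given without the first control.

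The promoter windows of 4 mitoribosome genes are shown because they show the motifs counted further on, in 3 genes named for their p in the comparison and 1 with a shared start region. Mrpl34 and Mrps21 had the smallest p in each subunit, and both were lower in the HDAC KO libraries. Mrpl52 was higher there, and Mrps11 shares part of its window with that of Mrpl46 on the other strand. Each runs 5′ to 3′ on the strand of the gene, from 250 bases before to 50 bases after the start, from RefSeq on GRCm38.p6. Capitals mark matches on either strand to 3 motifs bound by regulators of nuclear mitochondrial genes: GCGCA, any base and GCGC for NRF1, CCGGAAG for ETS-family factors such as GABP, and AAGATGGC for YY1. The windows lie at chr8:71464676-71464975 (plus strand) for Mrpl34, chr3:95871465-95871764 (minus strand) for Mrps21, chr14:54426659-54426958 (plus strand) for Mrpl52 and chr7:78782881-78783180 (plus strand) for Mrps11.
Mrpl34: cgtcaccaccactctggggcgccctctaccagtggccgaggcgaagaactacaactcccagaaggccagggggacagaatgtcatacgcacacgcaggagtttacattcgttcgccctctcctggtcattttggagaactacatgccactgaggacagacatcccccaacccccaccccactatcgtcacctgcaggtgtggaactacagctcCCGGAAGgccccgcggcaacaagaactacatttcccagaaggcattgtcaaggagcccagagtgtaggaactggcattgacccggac
Mrps21: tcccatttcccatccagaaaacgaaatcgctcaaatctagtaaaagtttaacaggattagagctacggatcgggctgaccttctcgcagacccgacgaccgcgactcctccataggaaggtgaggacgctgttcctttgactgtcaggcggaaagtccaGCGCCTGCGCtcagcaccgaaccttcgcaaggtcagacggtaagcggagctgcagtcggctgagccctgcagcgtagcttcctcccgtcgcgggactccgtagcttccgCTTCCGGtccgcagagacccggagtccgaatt
Mrpl52: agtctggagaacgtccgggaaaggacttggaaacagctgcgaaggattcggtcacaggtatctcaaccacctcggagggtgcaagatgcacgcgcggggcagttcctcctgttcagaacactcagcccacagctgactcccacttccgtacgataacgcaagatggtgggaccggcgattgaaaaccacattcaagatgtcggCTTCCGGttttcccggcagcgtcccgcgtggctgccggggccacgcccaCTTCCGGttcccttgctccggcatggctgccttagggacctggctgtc
Mrps11: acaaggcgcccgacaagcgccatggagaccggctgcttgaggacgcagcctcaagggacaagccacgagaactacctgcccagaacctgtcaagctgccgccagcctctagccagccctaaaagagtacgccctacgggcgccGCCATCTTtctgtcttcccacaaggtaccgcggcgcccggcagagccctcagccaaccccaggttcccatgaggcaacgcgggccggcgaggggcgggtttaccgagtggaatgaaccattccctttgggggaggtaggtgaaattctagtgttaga
The Mrpl34 window holds 1 ETS match, starting at -37, counted so that 1 is the first transcribed base. The Mrps21 window holds an NRF1 match at -91 and an ETS match at 19, the latter in the transcribed part. The Mrpl52 window holds 2 ETS matches, at -47 and 3, and the Mrps11 window holds a YY1 match at -107. Such a match is a description of letters and not evidence of binding.

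No mitoribosome gene passed the test. Of the 77 genes, 0 had an adjusted p below 0.05 in limma, where 0.00537% of the 18612 genes tested did, which is 1 gene. At an unadjusted p below 0.05, 1 member was lower in the HDAC KO libraries (Mrpl34; 4.46% of all genes were lower at that p) and 1 was higher (Mrpl52; 13.4% of all genes). Voom on the reads recovered from the TPM values likewise gave 0 adjusted calls and 1 member in each direction at an unadjusted p below 0.05. Without the second control, 1 member, Mrpl34, was called, beside 11.2% of all genes. Adjusted p-values of the members ran from 0.218 to 0.997.

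The members as a group were narrowly spread. Their log2 fold changes, HDAC KO against control on log2(TPM + 1), ran from -0.66 to 0.47, and 1 of 77 was beyond 0.5 in size, beside 30.8% of all genes tested. The SD was 0.21 over members and 0.63 over all genes tested. This was not particular to the members. The SD was 0.21 over cytosolic ribosomal proteins, 0.18 over mitoribosome assembly factors and 0.27 over respiratory chain subunits. The median over members was -0.03, beside 0.17 over all genes, so the members lay -0.19 from the all-gene median and 87% of them were below it. Libraries of the same group also differed little for these genes: the median absolute log2 difference was 0.15 between the controls and 0.13 between the HDAC KO libraries, against 0.39 and 0.20 over all genes.

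Members whose libraries did not overlap between the groups were counted beside the same over all genes. Both HDAC KO libraries were lower than both controls for 23 members (29.9%), where 14.3% of all genes tested were, and higher for 16 members (20.8%), where 36.7% of all genes were. The other 38 overlapped between the groups. The choice of scaling bears on these counts, because the median of all genes moved by -0.18 on the log2 scale when the columns were scaled by their median ratios. After that scaling, 38 members were lower in both (24.6% of all genes) and 3 were higher in both (25.3% of all genes). Median positions are therefore given relative to all genes. That relative median depended on the controls: for the large subunit it was -0.19 with all libraries, -0.04 without the first control and -0.36 without the second.

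**Figure D1:**
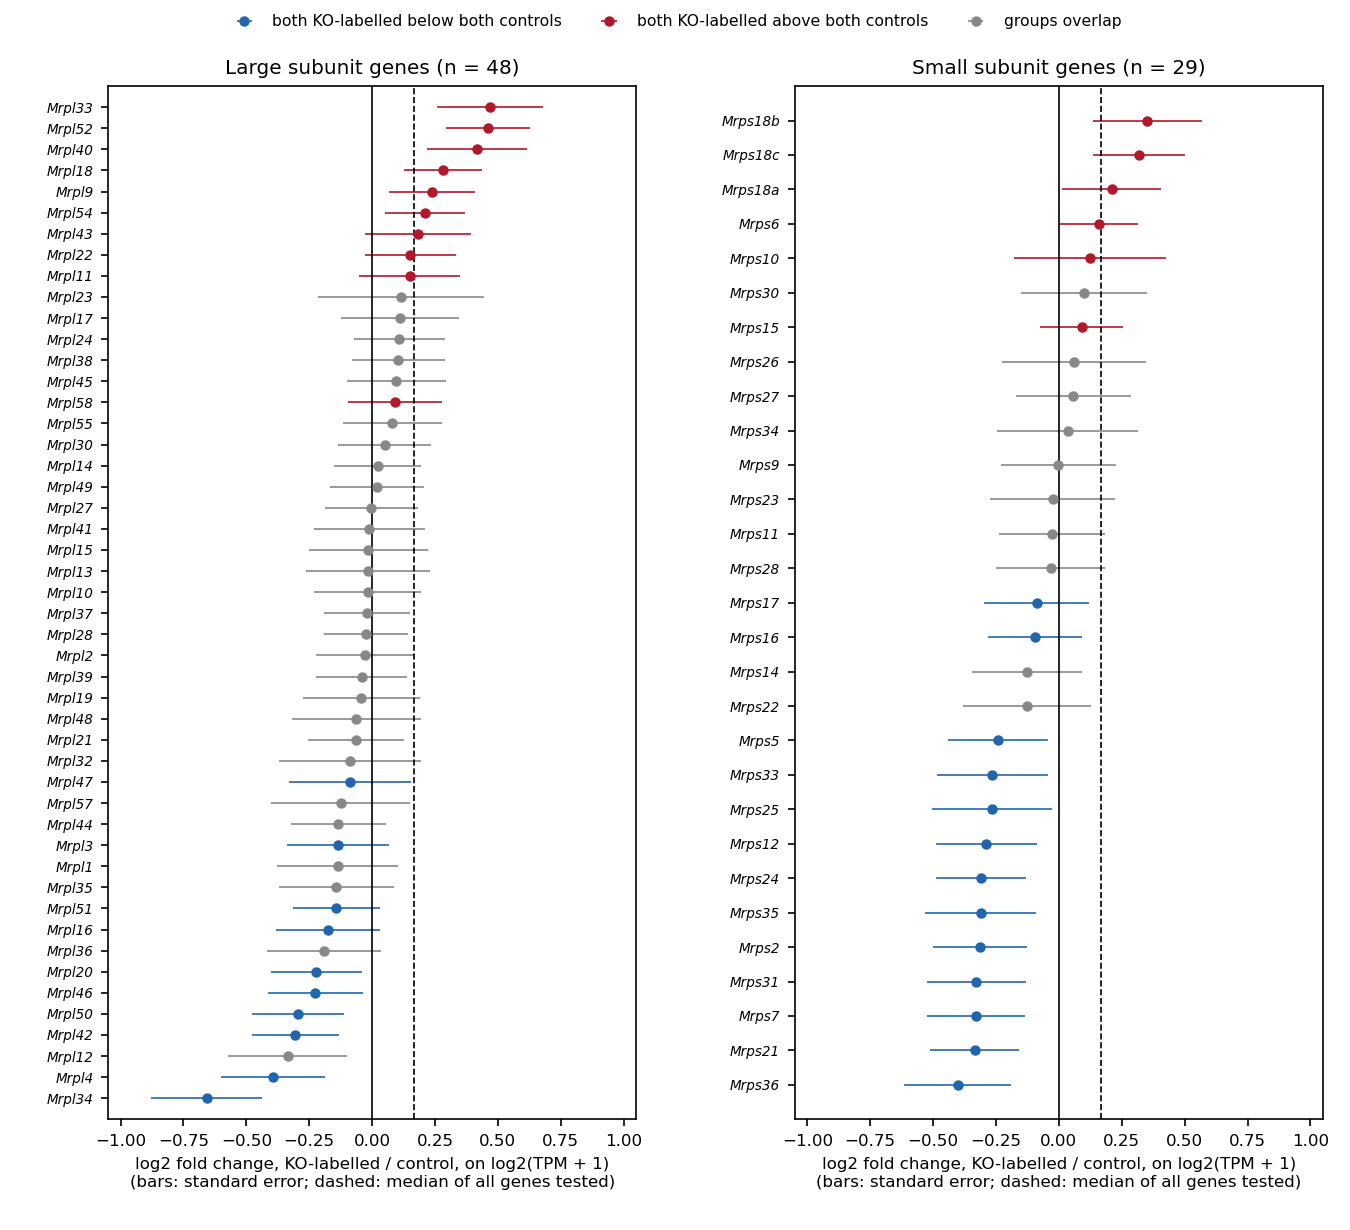
Log2 fold change of each of the 77 mitoribosome genes, HDAC KO against control on log2(TPM + 1) (x axis), for large subunit (left) and small subunit genes (right). Bars are standard errors from limma, colour shows whether the libraries of the groups overlap, and the dashed line is the all-gene median of 0.17. Most points lie left of the dashed line and within 0.5 of 0.

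Among large subunit proteins at the catalytic core and its surroundings, Mrpl12 was the most abundant transcript of all 77, at a mean of 106 TPM. Mrpl12 is the stalk protein that contacts translation factors, and it measured 140 and 97.1 TPM in the control pools, and 82.6 and 103 in the HDAC KO pools. The groups overlapped, the log2 difference was -0.34 (SE 0.24, adjusted p = 0.529), and it was -0.07 without the first control. Antisense exons of Gm16755 cover 13.1% of those of Mrpl12, so its value is uncertain. Mrpl2, which sits near the peptidyl transferase centre, measured 56.0 and 46.4 TPM against 44.5 and 56.0 TPM, also overlapping.

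Mrpl4, whose protein lines the exit tunnel for the new chain, measured 30.4 and 25.1 TPM in the control pools, and 18.5 and 23.3 in the HDAC KO pools. Both HDAC KO values were below both controls, with a log2 difference of -0.39 (SE 0.21, adjusted p = 0.397), or -0.26 without the first control. Mrpl23, at the mouth of that tunnel, was among the lowest large subunit transcripts, at 2.23 and 3.49 TPM against 2.60 and 3.72 TPM. The lower HDAC KO library lay between the controls, so the groups overlapped.

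Mrpl34 had the most negative log2 fold change of all members. It is the homologue of a small basic protein of the bacterial large subunit, and its gene lies on chr8:71464959-71465747. Its levels were 73.6 and 50.8 TPM in the control pools, and 37.3 and 39.6 in the HDAC KO pools, from 162 to 299 reads per library. The groups did not overlap, and the mean was 62.2 ± 16 TPM in the controls (SD, n = 2) and 38.4 ± 1.6 TPM in the HDAC KO libraries (SD, n = 2), 1.62-fold higher in the controls. The log2 difference was -0.66 (SE 0.22, adjusted p = 0.218), and its size followed the control used, at -0.40 without the first control and -0.92 without the second (adjusted p = 0.0352 in limma).

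The large subunit genes Mrpl42 and Mrpl50 were also lower in both HDAC KO libraries. Mrpl42, specific to mitochondria, measured 24 and 22.1 TPM against 18.7 and 18.1 TPM, a log2 difference of -0.31 (SE 0.17, adjusted p = 0.431). Mrpl50, also specific to mitochondria, measured 43.3 and 45.5 TPM against 32.0 and 40.4 TPM, a difference of -0.29 (SE 0.18, adjusted p = 0.471). Their values stayed close within each group, apart from Mrpl50 in the HDAC KO pools.

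Mrpl52 had the smallest p of the genes in the other direction. This mitochondria-specific subunit, on chr14:54426909-54429756, measured 23.3 and 23.8 TPM in the control pools, and 30.9 and 34.8 in the HDAC KO pools. Both controls were nearly equal, so the log2 difference of 0.46 (SE 0.17, adjusted p = 0.244) was 0.45 without the first control and 0.47 without the second. The mean was 1.39-fold higher in the HDAC KO libraries, and after median-ratio scaling the groups still did not overlap.

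Mrpl33, a homologue of a bacterial protein, had the highest log2 fold change of all members and close values within each group: 7.37 and 7.63 TPM in the control pools, and 10.6 and 10.9 in the HDAC KO pools, with a log2 difference of 0.47 (SE 0.21, adjusted p = 0.334). Mrpl40, specific to mitochondria, measured 17.5 and 14.4 TPM against 23.2 and 20.0 TPM, with 0.42 (SE 0.20, adjusted p = 0.355). Mrpl33 stayed non-overlapping after median-ratio scaling, and Mrpl40 did not.

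Mrpl18 measured 38.1 and 35.5 TPM against 45.9 and 43.9 TPM, Mrpl9 22.7 and 21.5 TPM against 25 and 27.7 TPM, and Mrpl54 56.3 and 49.0 TPM against 62.3 and 59.6 TPM. Mrpl18 and Mrpl9 have bacterial homologues and Mrpl54 does not. All 3 were higher in both HDAC KO libraries as deposited, and all 3 overlapped between groups after median-ratio scaling, where the log2 difference of Mrpl54 turned to -0.00. Exons of the antisense gene Tcp1 cover 10.1% of those of Mrpl18, and without a stated strand setting shared reads cannot be told apart.

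Over the large subunit, 10 genes were lower in both HDAC KO libraries, 10 were higher in both and 28 overlapped, or 20.8% each way beside 14.3% lower and 36.7% higher over all genes. The median log2 fold change was -0.02. Mrpl48, the other of the 2 lowest in mean level, measured 4.86 and 5.14 TPM against 4.40 and 5.10 TPM. After median-ratio scaling, 22 large subunit genes were lower in both (24.6% of all genes) and 2 were higher in both (25.3% of all genes), Mrpl52 and Mrpl33.

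**Figure D2:**
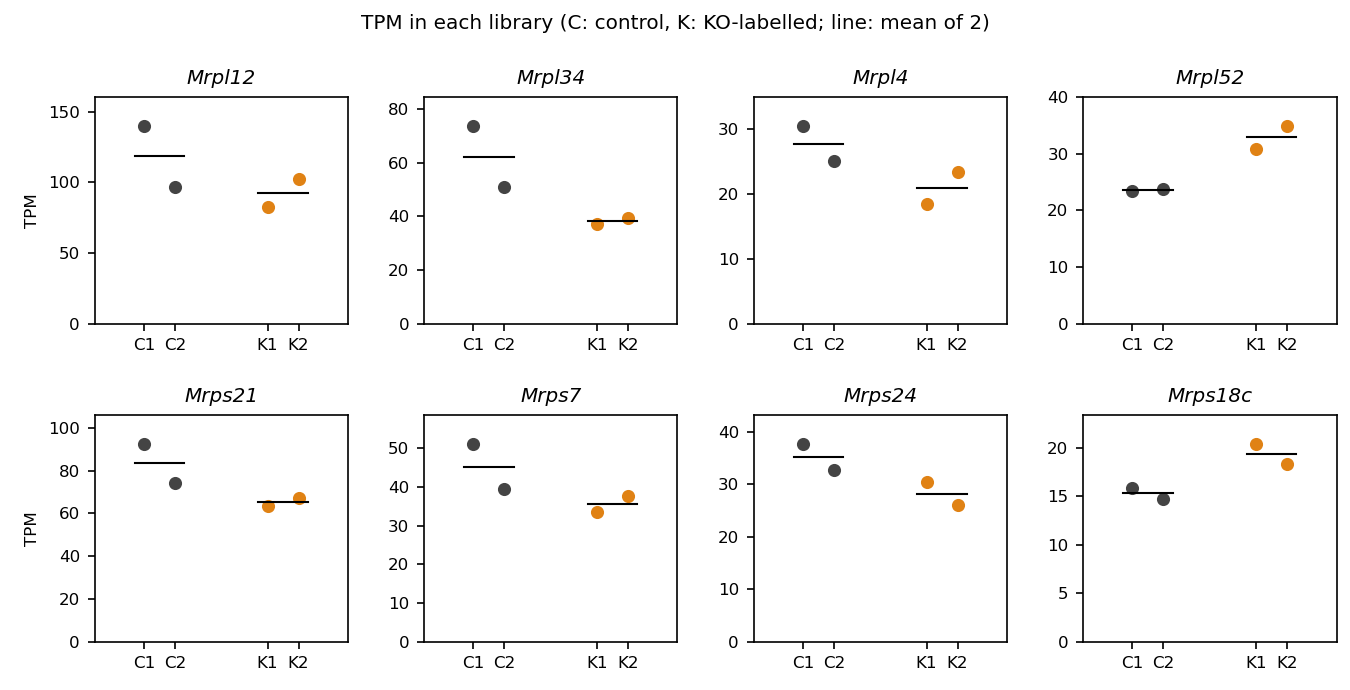
TPM in each library (y axis, from 0) for 4 large subunit genes (top) and 4 small subunit genes (bottom), with C for control and K for HDAC KO libraries and a line at the mean of 2. The first control is the highest library for Mrpl12, Mrpl34, Mrpl4, Mrps21, Mrps7 and Mrps24, while Mrpl52 and Mrps18c are higher in both HDAC KO libraries.

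In the small subunit, the most abundant transcript was Mrps21, the homologue of a bacterial small subunit protein, on chr3:95862634-95871519. It measured 92.4 and 74.4 TPM in the control pools, and 63.7 and 67.5 in the HDAC KO pools, means of 83.4 ± 13 and 65.6 ± 2.7 TPM (SD, n = 2 each). The groups did not overlap, the log2 difference was -0.33 (SE 0.18, adjusted p = 0.396), and it was -0.18 without the first control and -0.49 without the second.

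Mrps7, Mrps24 and Mrps2 were among the small subunit genes with the smallest p. Mrps7, a protein of the head, measured 51.0 and 39.4 TPM against 33.4 and 37.7 TPM (log2 difference -0.33, SE 0.19, adjusted p = 0.449; -0.15 without the first control and -0.51 without the second). Mrps24, at the mRNA entrance, measured 37.6 and 32.8 TPM against 30.4 and 26 TPM (log2 difference -0.31, SE 0.18, adjusted p = 0.441). Mrps2 measured 24.2 and 20.3 TPM against 17 and 18.3 TPM (log2 difference -0.31, SE 0.19, adjusted p = 0.458; -0.19 without the first control). For all 3, both HDAC KO libraries were below both controls. Same-strand exons of Urgcp overlap 15.4% of those of Mrps24, and antisense exons overlap 11.9% of those of Mrps7, so both values are uncertain.

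The 3 genes related to the bacterial small subunit protein S18 were each higher in both HDAC KO libraries, as were 36.7% of all genes tested. They were named because they had the smallest p in that direction among the Mrps genes. Although related to S18, Mrps18a and Mrps18b are counted here among the proteins specific to mitochondria. Mrps18c, the copy in the matching place of the small subunit, measured 15.8 and 14.8 TPM against 20.4 and 18.3 TPM (log2 difference 0.32, SE 0.18, adjusted p = 0.439). Mrps18b, elsewhere in the small subunit, measured 7.66 and 8.86 TPM against 11.2 and 10.4 TPM (0.35, SE 0.22, adjusted p = 0.471), and Mrps18a, which structures place in the large subunit, 14 and 13.7 TPM against 14.8 and 17.7 TPM (0.21, SE 0.20, adjusted p = 0.637). After median-ratio scaling only Mrps18b of these 3 stayed non-overlapping. Exons of Gm43511 on the same strand overlap 23.2% of those of Mrps18c, and antisense exons of Gm16279 overlap 30.5% of those of Mrps18b.

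Mrps6 measured 42.1 and 45.0 TPM against 46.8 and 50.8 TPM and Mrps15 23.0 and 22.6 TPM against 24.8 and 24 TPM. Both have bacterial homologues, and both changed sign after median-ratio scaling. Mrps10 had the lowest level of all members, at 1.18 and 1.09 TPM against 1.37 and 1.29 TPM, from 47 to 87 reads spread over 8079 bases of annotated exon. Mrps30, which structures place in the large subunit, measured 5.36 and 4.66 TPM against 5.30 and 5.54 TPM. Same-strand exons overlap 19.9% of those of Mrps6.

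The Mrps name does not match the known function of 1 gene. Mrps36 is known as a subunit of the 2-oxoglutarate dehydrogenase complex of the citric acid cycle and is in neither ribosomal subunit. It had the most negative fold change of the 29 Mrps genes, at 14.7 and 12 TPM in the control pools, and 9.98 and 9.67 in the HDAC KO pools (log2 difference -0.40, SE 0.21, adjusted p = 0.40).

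Over the small subunit, 13 genes were lower in both HDAC KO libraries, 6 were higher in both and 10 overlapped, or 44.8% lower and 20.7% higher beside 14.3% and 36.7% over all genes. The median log2 fold change was -0.09, which lay -0.26 from all genes, or -0.13 without the first control and -0.46 without the second. After median-ratio scaling 16 were lower in both (24.6% of all genes) and 1 was higher in both (25.3% of all genes). Exons of other genes cover over 10% of the exons of 17 of the 77 members, on the same strand for 4. The widest cover was over Mrps34 (77.8%) and Mrps25 (69.8%), whose values are uncertain for that reason.

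The large subunit median was 0.07 above the small subunit median on the log2 scale. The difference was 0.12 with quantile normalization and 0.13 without HDAC KO replicate 1. The medians lay closer together with median-ratio scaling (-0.23 and -0.29) and with a pseudocount of 5 (-0.017 and -0.064). By the placement in structures, which moves Mrps30 and Mrps18a and drops Mrps36, the medians were -0.02 over 50 genes and -0.09 over 26. Within the large subunit, genes with a bacterial homologue (30) had a median of -0.02 and those specific to mitochondria (20) one of 0.00. Within the small subunit these medians were -0.09 (16) and -0.08 (10). Fold changes of single genes had an SD of 0.21 in each subunit, and the gaps between medians were not tested.

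Within each library, the summed level of large over small subunit genes does not depend on scaling. That ratio was 2.19 and 2.17 for the control pools, and 2.25 and 2.35 in the HDAC KO libraries. It was higher in both HDAC KO libraries, and also higher in both without the most abundant gene of each subunit, Mrpl12 and Mrps21 (2.33 and 2.33 against 2.41 and 2.49). An exact permutation test of 2 against 2 libraries cannot give a two-sided p below 0.33, and the ratio is given as values without a test.

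The 5 further mitoribosome proteins listed carry other names, and their median log2 fold change was 0.06. Ptcd3, near the mRNA entrance, measured 12.8 and 14.9 TPM against 11.4 and 11.6 TPM. Dap3, a GTP-binding protein of the small subunit, measured 14.2 and 13.7 TPM against 15.3 and 16.5 TPM. Ptcd3 was lower in both and Dap3 higher in both, or 20% each way beside 14.3% lower and 36.7% higher over all genes. The other 3 (Aurkaip1, Chchd1 and Gadd45gip1) overlapped, and after median-ratio scaling Dap3 did too.

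Mitoribosome assembly factors, which modify and fold the rRNAs and load the proteins, had a median of 0.04 over 27 genes, with 4 lower in both (14.8%, beside 14.3% of all genes) and 8 higher in both (29.6%, beside 36.7%). Gtpbp6, a GTPase, measured 4.76 and 6.75 TPM against 7.02 and 8.51 TPM. Rpusd4, an RNA pseudouridine synthase, measured 9.37 and 9.26 TPM against 11.2 and 12.5 TPM, and Rcc1l 12.1 and 10.5 TPM against 13.2 and 15.2 TPM. None had an adjusted p below 0.05.

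Translation factors, which drive the ribosome through each cycle, were listed together with other genes such as Lrpprc, Slirp and Oxa1l. This list had a median of -0.19 over 15 genes, with 8 lower in both (53.3%, beside 14.3% of all genes). Another 3 were higher in both (20%, beside 36.7%). Lrpprc and Slirp were among the 8. Gfm1, the elongation factor that moves the ribosome along the mRNA, measured 53.7 and 38.3 TPM in the control pools, and 29.6 and 29.5 in the HDAC KO pools (log2 difference -0.60, SE 0.21, adjusted p = 0.233; -0.36 without the first control). Tufm, which brings charged tRNA, measured 73.8 and 57.9 TPM against 47.9 and 54.0 TPM, and Lrpprc, which stabilises mitochondrial mRNAs, 39.8 and 34.4 TPM against 26.5 and 28.5 TPM. In each of these 3 the first control was the highest library.

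Mitochondrial aminoacyl-tRNA synthetases, which charge the tRNAs, were listed together with Gatb, Gatc and Qrsl1, which are not synthetases. This list had a median of -0.07 over 20 genes, with 5 lower in both (25%, beside 14.3% of all genes) and 0 higher in both. Gatb was among the 5. Rars2 for arginine measured 34.2 and 24.8 TPM against 20.8 and 20.1 TPM. Lars2 for leucine measured 141 and 27.1 TPM in the control pools, and 10.8 and 26.4 in the HDAC KO pools, with a log2 difference of -1.81 (SE 0.82), or -0.64 without the first control and -2.98 without the second, and the second control was close to the higher HDAC KO library. Yars2 for tyrosine measured 11.7 and 7.54 TPM against 6.39 and 6.91 TPM.

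Genes of mitochondrial DNA transcription and replication had a median of -0.13 over 12 genes, with 4 lower in both (33.3%, beside 14.3% of all genes) and 0 higher in both. Mterf2 measured 5.72 and 6.19 TPM against 3.59 and 3.62 TPM. Polrmt, the mitochondrial RNA polymerase, overlapped between groups at 24.3 and 21.2 TPM against 16.1 and 21.4 TPM.

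The rRNA partners of these proteins were lower on average. The small subunit rRNA mt-Rnr1 measured 2964 and 2607 TPM in the control pools, and 1997 and 1185 in the HDAC KO pools, and the large subunit rRNA mt-Rnr2 1790 and 3642 TPM against 1885 and 1132 TPM. mt-Rnr1 was lower in both HDAC KO libraries and mt-Rnr2 overlapped. Poly(A) selection captures rRNA incompletely and near-identical nuclear copies can share its reads, so these levels are uncertain. The 13 protein-coding mitochondrial transcripts had a median of -0.16, with 5 lower in both (38.5%, beside 14.3% of all genes) and 0 higher in both. Of these transcripts, mt-Co2, mt-Co3, mt-Atp6, mt-Atp8, mt-Nd3 and mt-Nd4l had at most 425 reads in any library, where mt-Co1 had at least 1178528. Their levels are therefore uncertain too, and mt-Co2 and mt-Co3 are among the 5 lower in both. The reason for the low reads was not tested.

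Regulators known to act on nuclear mitochondrial genes had a median of 0.16 over 10 genes, level with all genes. Nrf1 measured 5.38 and 7.55 TPM against 7.35 and 7.66 TPM, Gabpa 15.1 and 17.9 TPM against 15.8 and 16.1 TPM, and Yy1 23.2 and 29.1 TPM against 30.1 and 32.4 TPM. The factors whose motifs are shown above thus overlapped between groups, apart from Yy1. Myc, a growth-driving transcription factor, measured 4.18 and 13.6 TPM in the control pools, and 41.8 and 48.1 in the HDAC KO pools (log2 difference 2.40, SE 0.49, adjusted p = 0.114). The coactivator Pprc1 measured 9.54 and 12.6 TPM against 15.7 and 19.5 TPM, and the nuclear receptor Esrra 50.3 and 35.8 TPM against 27.9 and 32.7 TPM.

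The mitoribosome medians lay between those of the respiratory chain and the cytosolic ribosome. Nuclear-encoded respiratory chain subunits, which join the products of the mitoribosome, had a median log2 fold change of -0.45 over 82 genes, and 72 were lower in both HDAC KO libraries (87.8%, beside 14.3% of all genes). Cytosolic ribosomal proteins had a median of 0.60 over 83 genes, and 77 were higher in both (92.8%, beside 36.7% of all genes). No gene of either family had an adjusted p below 0.05, with lowest values of 0.106 and 0.116. At an unadjusted p below 0.05, 50 respiratory chain genes were lower (4.46% of all genes) and 69 cytosolic ribosomal protein genes were higher (13.4% of all genes), beside 1 mitoribosome gene in each direction. Without the first control the family medians were -0.36 and 0.49.

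**Figure D3:**
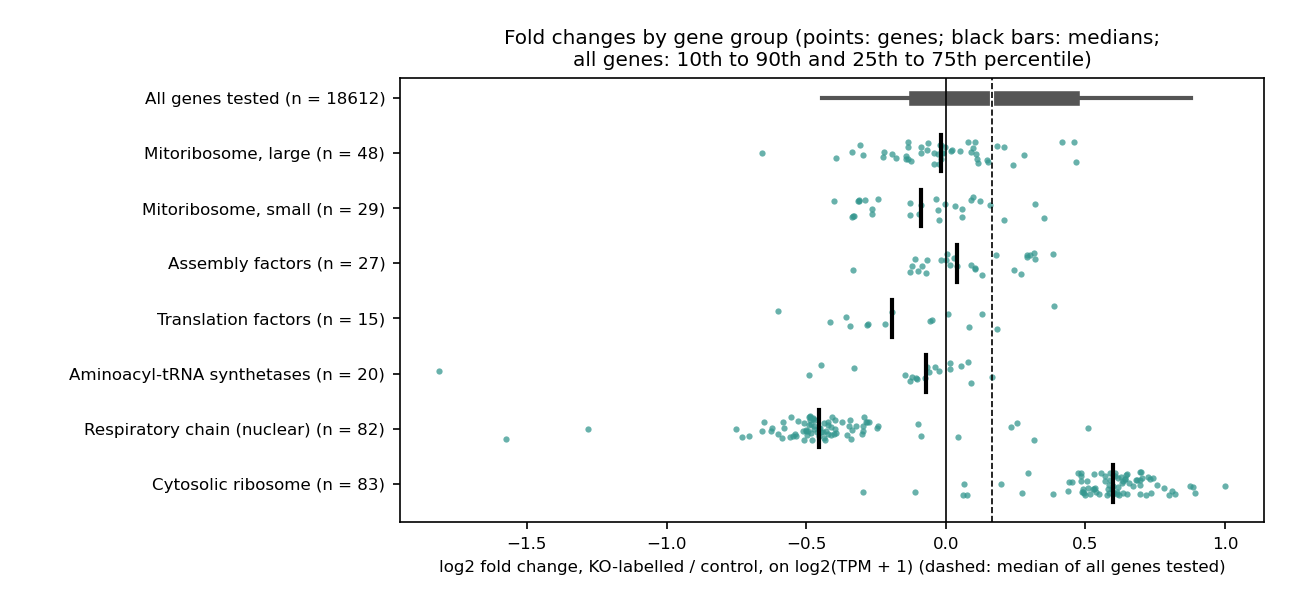
Log2 fold changes, HDAC KO against control on log2(TPM + 1) (x axis), by gene group, with 1 point per gene and a black bar at the median. The large and small subunit medians of -0.02 and -0.09 lie between those of the respiratory chain (-0.45) and the cytosolic ribosome (0.60), and the dashed line is the all-gene median.

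Ratios of summed levels were also taken within each library. Respiratory chain subunits held 7.79 and 7.40 times the TPM of the mitoribosome genes in the controls and 5.89 and 5.74 times in the HDAC KO libraries. Cytosolic ribosomal proteins held 5.69 and 7.19 times the TPM of the mitoribosome genes in the controls and 10.1 and 10.5 times in the HDAC KO libraries. Neither ratio overlapped between groups. The mitoribosome genes themselves took 0.173% and 0.154% of TPM in the controls and 0.149% and 0.161% in the HDAC KO libraries, which overlapped. Of the TPM outside mitochondrially encoded genes they took 0.289% and 0.288% against 0.252% and 0.263%, which did not.

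**Figure D4:**
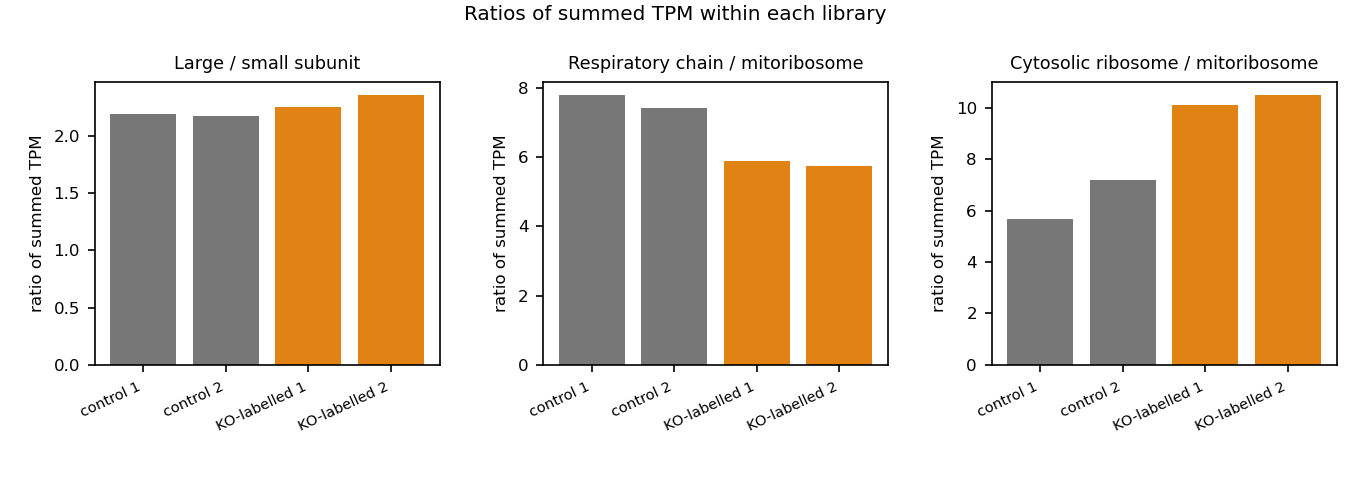
Ratios of summed TPM within each library (y axis, from 0): large over small subunit genes (left), respiratory chain subunits over mitoribosome genes (middle) and cytosolic ribosomal proteins over mitoribosome genes (right). Grey bars are the 2 controls and orange bars the 2 HDAC KO libraries, 1 bar per library with no error. The respiratory chain ratio is lower and the cytosolic ribosome ratio higher in both HDAC KO libraries.

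Markers of several cell types differed in level along with the groups. Of 16 proximal tubule markers, 14 were lower in both HDAC KO libraries, with sums, Kap left out, between 9433 and 14458 TPM in the controls and between 4936 and 5470 TPM in the others. All 12 immune markers were higher in both, with sums of 140 and 426 TPM against 1805 and 1998 TPM, and so were all 10 proliferation markers, with sums of 34.9 and 58.0 TPM against 103 and 136 TPM. Of 14 podocyte markers, 8 were lower in both. Sums of the other lists overlapped between groups: 333 and 796 against 288 and 585 TPM for glomerular endothelium, 211 and 279 against 237 and 306 TPM for mesangium and smooth muscle, and 2709 and 2602 against 2451 and 2719 TPM for the distal nephron and collecting duct. Of the 10 markers of the distal nephron and collecting duct, 5 were still lower in both and 1, Umod, was higher in both. For comparison, lower in both held for 14.3% of all genes tested and higher in both for 36.7%. No marker of these lists was at 0 in every library. Their part in the mitoribosome values was not tested.

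Many mitoribosome genes start close to another gene on the opposite strand. A protein-coding gene started there within 1000 bases for 33 of 77 members (42.9%), 24 of the large and 9 of the small subunit, where 15.5% of the 13309 protein-coding genes tested had one. Of these partners, 31 were tested, counting the pair Mrps11 and Mrpl46 in both directions. The partners' log2 fold changes ran from -0.50 to 1.03 (SD 0.35), and those of the members beside them from -0.33 to 0.42 (SD 0.19). The highest was that of Eme1, beside Mrpl27, at a low 0.60 and 0.74 TPM against 2.02 and 2.86 TPM. Member and partner had the same sign in 15 of the 31. Of the partners, 10 were higher in both HDAC KO libraries and 5 lower in both. Over all genes tested, 36.7% were higher in both and 14.3% lower in both. The pairs named next were chosen after their values were seen.

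Mrpl36, on chromosome 13, starts beside Ndufs6, a subunit of respiratory complex I. Ndufs6 measured 110 and 99.1 TPM in the control pools, and 68.8 and 79.1 in the HDAC KO pools, while Mrpl36 overlapped at 26.1 and 18.2 TPM against 19.0 and 18.9 TPM. Mrpl47 starts beside Ndufb5, also of complex I, which measured 35.2 and 35.0 TPM against 25.1 and 25.7 TPM, while Mrpl47 measured 5.78 and 5.59 TPM against 5.41 and 5.17 TPM. In both pairs the complex I gene had the more negative log2 fold change, -0.50 and -0.45 against -0.19 and -0.09. Antisense exons of Actl6a and Ndufb5 cover 24.2% of those of Mrpl47, so its value is uncertain without a stated strand setting.

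In other pairs the partner had the higher value. Mrpl49 starts beside Fau, which encodes a cytosolic ribosomal protein fused to a ubiquitin-like protein. Fau measured 179 and 186 TPM against 234 and 301 TPM, and Mrpl49 27.2 and 24.8 TPM against 23.8 and 29.1 TPM. Mrpl51 starts beside Ncapd2, a condensin subunit used in mitosis, which measured 6.82 and 8.95 TPM against 13.8 and 18.3 TPM, while Mrpl51 measured 25 and 22.2 TPM against 21.1 and 21.4 TPM. The partners were higher in both HDAC KO libraries, with log2 fold changes of 0.54 and 0.94, against 0.02 and -0.14 for the mitoribosome genes beside them. Mrpl46 and Mrps11 overlap at their starts by 412 bases, and their promoter windows share 141 bases. Mrpl46 measured 18.3 and 18.9 TPM against 14.6 and 17 TPM, and Mrps11 14.2 and 12.1 TPM against 11.8 and 13.9 TPM. Exons of Mrps11 cover 12.2% of those of Mrpl46, so this value is uncertain too.

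Promoter windows were found for 68 of the 77 members. The ETS letters CCGGAAG were in 25 of them (36.8%), in 16 of 64 respiratory chain genes (25%) and in 19.1% of 10447 protein-coding genes tested. The YY1 letters AAGATGGC were in 12 (17.6%), against 14.1% and 5.02%, and the NRF1 letters in 13 (19.1%), against 26.6% and 10.9%. Either NRF1 or ETS letters were in 34 (50%), against 27.4% of the protein-coding genes tested. By contrast the SP-type letters GGGCGG were in 34 members (50%), against 66.9% of protein-coding genes tested. The E-box CACGTG, which Myc binds, was in 5 (7.35%) against 11.5%, and CCAAT in 26 (38.2%) against 42.2%. A gene counted if any of its windows matched. The members had 74 windows for 68 genes, and the protein-coding genes tested 13304 for 10447. Per window, the shares were 9.46% against 9.62% for the E-box and 39.2% against 37.0% for CCAAT. They were 52.7% against 60.5% for SP, 33.8% against 16.3% for ETS, 16.2% against 4.13% for YY1 and 17.6% against 9.22% for NRF1. All motifs were searched on both strands over windows of 300 bases. None is contained in another, though ETS and YY1 matches can overlap in the letters AAG.

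**Figure D5:**
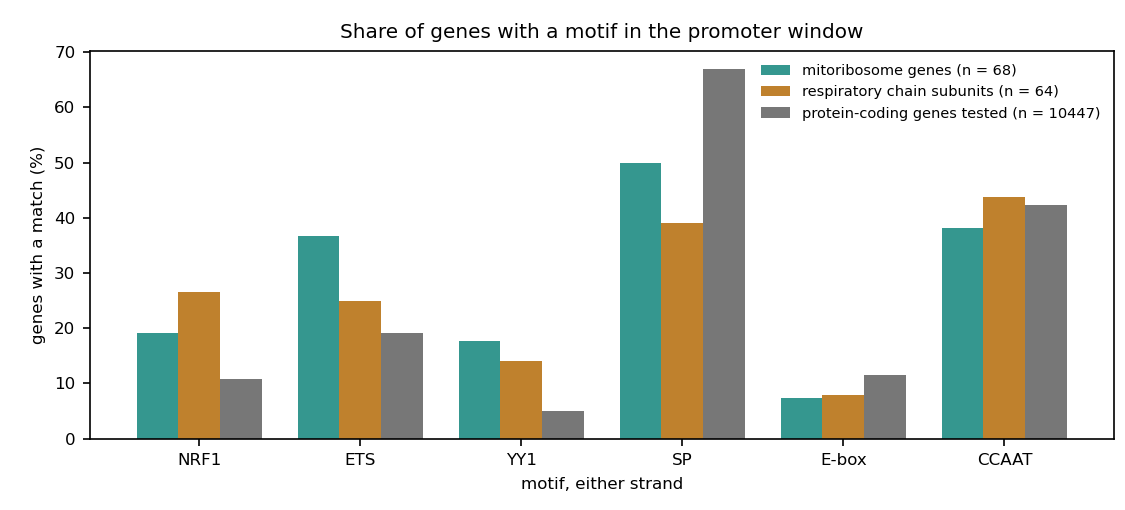
Share of genes with at least 1 match to each motif on either strand of the promoter window (y axis, percent), for 68 mitoribosome genes, 64 respiratory chain genes and 10447 protein-coding genes tested. The mitoribosome genes stand at 36.8% for ETS and 17.6% for YY1, above the protein-coding genes, and at 50% for SP, below them.

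Motif shares were also taken by subunit and by fold change. NRF1 letters were in 23.8% of large and 11.5% of small subunit genes, ETS letters in 33.3% and 42.3%, and SP letters in 40.5% and 65.4%. Members with ETS letters (25) had a median log2 fold change of -0.00 and those without (43) -0.04. Of the former, 7 were lower and 9 higher in both HDAC KO libraries, and of the latter 14 and 6. For NRF1 letters the medians were -0.00 and -0.03. Of the 13 genes with NRF1 letters, 11 overlapped between the groups, 1 was lower in both (Mrps21) and 1 was higher in both. Over all genes tested, 14.3% were lower in both, 36.7% were higher in both and 9132 of 18612 overlapped. The counts by motif were chosen after the values were seen and carry no test.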

How the data were processed

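TPM for 22809 genes in 4 columns, 1 per library, were deposited by the authors. Build GRCm38.p6 and, without roles or order, DESeq2 1.30.1, featureCounts 2.0.0, STAR 2.7.9 and fastp 0.20 are listed in the submitters' processing notes. Which annotation and which strand setting the authors used is not stated in the labels or files used here. The members and gene lists were chosen with earlier results of these data known.

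Genes with a mean of at least 1 TPM (18612) were fitted with limma 3.58.1 in R 4.3.3 (lmFit, eBayes with trend) on log2(TPM + 1), 2 control against 2 knockout-labelled libraries with no covariate. P-values were adjusted by Benjamini-Hochberg over all genes tested and called below 0.05. Fold changes on that scale understate the change of low genes. A list is described by counts and its median, with no test.

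TPM times GENCODE M21 exon length gave whole reads for 22176 genes (97.2%; 100% of values whole within a relative tolerance of 1e-06), for depth and voom. Members had a median of 223 to 339 reads per library, and low members vary more by counting. Exon overlaps come from the same annotation. Named genes were, per subunit, the 4 highest and 2 lowest in mean TPM and the 5 with the smallest p in each direction, the 5 mitoribosome proteins named otherwise, the rRNAs, Hdac1 and Hdac2, and up to 3 genes with the smallest p of the other mitochondrial lists; Nrf1, Gabpa and Yy1 were added because their motifs were searched. Alternatives were other pseudocounts, filters and scalings, no trend, a replicate block, voom, structural placement and each library left out. The fit was tested on simulated data. Python 3.11.15, numpy 2.4.6, pandas 2.3.3 and matplotlib 3.10.9 were used.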

Additional observations from a re-analysis of the deposited data

How the results depend on the processing

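Values for all genes, the subunits and the lists were compared over the other settings run on all 4 libraries. Of these, 159 stayed within the spread used here, which rests on the SD between replicates, and 12 did not. That SD was 0.19 for the large and 0.25 for the small subunit, about the size of the relative medians (-0.19 and -0.26). Staying within it therefore does not show that a median was stable. Genes called lower numbered 0 with quantile normalization, without trend and with voom, against 1 gene. Large subunit genes lower in both HDAC KO libraries numbered 22 with median-ratio scaling, 23 with quantile normalization and 17 without mitochondrially encoded genes, and those higher in both 2, 4 and 6. Small subunit genes higher in both numbered 1, 0 and 3 in that order. With median-ratio scaling 24.6% of all genes were lower in both and 25.3% higher in both, and no such share is given for the others. The relative median stayed negative for both subunits in every setting run, leave-one-out fits included. The 2 mitochondrially encoded lists have no value without mitochondrially encoded genes.

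With each library left out in turn, where a lone library is assumed to vary like the other group, called genes ran from 0 to 522 lower and from 0 to 1558 higher, both highest without control replicate 2. Large subunit genes lower in both ran from 14 to 19 and higher in both from 11 to 21, small subunit genes higher in both from 7 to 10, and the relative median of the otherwise named proteins from -0.27 to -0.024. Counts of this kind are larger with fewer libraries to separate, and no share of all genes is given beside them. Without control replicate 2, Mrpl34 (-0.92), Gfm1 (-0.84), Lars2 (-2.98) and Myc (3.15) were called.

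Of 56 named genes, 16 changed sign in at least 1 setting, all of them uncalled. With median-ratio scaling the log2 fold changes were -0.0044 for Mrpl54, -0.044 for Mrpl23, -0.054 for Mrps6, -0.12 for Mrps15, -0.087 for Mrps30, -0.026 for Dap3, -0.14 for Chchd1, -0.12 for Gadd45gip1 and -0.20 for Hdac2. With quantile normalization they were -0.14 for Mrpl23, -0.068 for Mrps15, -0.14 for Mrps10, -0.12 for Mrps30, -0.013 for Dap3, -0.066 for Chchd1, -0.16 for Gadd45gip1, -0.023 for Nrf1 and -0.17 for Hdac2. Without mitochondrially encoded genes they were -0.022 for Chchd1, -0.019 for Gadd45gip1 and -0.083 for Hdac2, and with voom -0.044 for Hdac2. With a library left out, the ranges that crossed 0 were -0.12 to 0.35 for Mrpl23, -0.15 to 0.025 for Mrpl48, -0.19 to 0.13 for Mrpl2, -0.13 to 0.26 for Chchd1, -0.15 to 0.032 for Aurkaip1, -0.028 to 0.15 for Gadd45gip1, -0.12 to 0.13 for Hdac2, -0.0074 to 0.42 for Nrf1, -0.16 to 0.073 for Gabpa and -0.77 to 0.052 for mt-Atp6. The cause of these differences was not tested.

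The fit with the replicate block called 0 genes higher and 1 lower, with the medians as without it (-0.19 and -0.26 relative to all genes). Deviations of libraries with the same number correlated at 0.14 over 18612 genes, and with 2 pairs whose origin the labels do not tie together the numbers were not used. Depth limits the lowest members most, with 47 to 87 reads per library for Mrps10.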
